A study of Mus musculus with 65 samples.

Results

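Cadherins, catenins, protocadherins, integrins, laminins and collagens are the genes with which the progenitors of the embryonic mouse cortex hold on to each other and to the matrix beneath the pia. Members were taken by name, as every gene whose symbol starts with Cdh, Pcdh, Ctnna, Ctnnd, Itga, Itgb, Lama, Lamb, Lamc or Col followed by the number or letters of a chain. The rule found 34 of the 10407 genes in the tables. Of these, 31 encode adhesion or matrix proteins, and 3 (Itgb1bp1, Itgb3bp and Col4a3bp) share only the first letters of their names with a family.

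The study read messenger RNA from 65 single cells of CD1 mice by Patch-seq, which samples the inside of a cell through a glass pipette, with 1 library per cell. There were 19 transplanted cells, progenitors of embryonic day 15 (E15) in the brain of a host of embryonic day 12 (E12), labelled transplanted. The other groups were 26 E15 cells and 20 E12 cells, both labelled wild type and marked with FlashTag, a dye that labels progenitors dividing at the ventricle. The series asks what progenitors do in a younger host. No animal of origin is given for any cell. Each group was therefore treated as a single sample, without a test between groups and without a standard error over cells.

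Classical cadherins join neighbouring cells at adherens junctions, and catenins tie their tails to actin. At the ventricular surface such junctions form a belt around the end feet of apical progenitors, and a loss of the junction detaches these cells. Integrins are pairs of an alpha and a beta chain that grip the extracellular matrix, which at the pia is a basement membrane of laminins, collagens and proteoglycans.

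Levels are given as CPM (counts scaled to the depth of the group), the reads of a gene in a group set against all reads of that group over the genes in the tables and scaled to a common total. Depth differed between the groups. The number of reads per cell was 22358 to 3622411 in the transplanted group (median 166134), 11449 to 4560871 in the E15 group (median 998630) and 10928 to 1635767 in the E12 group (median 148824). The deepest library made up 28.5% of the transplanted total, 12.2% of the E15 total and 33.1% of the E12 total. Libraries with more than 8000 genes detected, called many-gene libraries here, numbered 5 of 19 transplanted, 11 of 26 E15 and 0 of 20 E12 cells, and calls that change without them are given for the other libraries too. Among the other transplanted libraries replicate 19 made up 55.7% of the reads, so that cell weighs most in their summed levels. Among the other E15 libraries replicate 13 made up 26.7%. Marker genes of other cells differed too. The 14 microglia and macrophage genes summed to 1303 CPM in transplanted, 3698 CPM in E15 and 89.4 CPM in E12 cells, and the 12 measured ventral and interneuron genes to 2209 CPM in transplanted, 2876 CPM in E15 and 330.4 CPM in E12 cells. The order of transplanted and E15 cells turned without the many-gene libraries, with 2126 CPM of the microglia genes in transplanted and 1411 CPM in E15 cells, and 1734 CPM of the ventral genes in transplanted and 615.3 CPM in E15 cells. Medians over these cells were 441.9 CPM of the microglia genes in transplanted and 118.6 CPM in E15 cells. For the ventral genes they were closer, at 662.3 CPM in transplanted and 589.6 CPM in E15 cells. The 4 measured haemoglobin genes summed to 8185 CPM in transplanted, 1411 CPM in E15 and 1340 CPM in E12 cells. The 16 measured apical progenitor genes, listed for the labelled cell type, summed to 7819 CPM in transplanted, 7468 CPM in E15 and 9886 CPM in E12 cells, and no cell had less than 1138 CPM of them. In E15 cells much of this sum was Fabp7 and Dbi (2611 and 2431 CPM, against 1021 and 1902 CPM in E12 cells). Of the 16 genes, 13 were lower and 3 higher in E15 over E12 cells (median log2 ratio -1.46), with Pax6 at 289.0 against 1681 CPM. In transplanted over E12 cells 14 were lower and 2 higher (median -1.47). The many-gene libraries stood apart in the sum of the apical progenitor genes: their median was 3415 CPM in transplanted and 2818 CPM in E15 cells, whereas that of the other libraries was 8583 CPM in transplanted and 21658 CPM in E15 cells. For the 12 neuron marker genes the many-gene libraries had medians of 7254 CPM in transplanted and 6117 CPM in E15 cells. The other libraries had medians of 2177 CPM in transplanted and 1387 CPM in E15 cells. Bounds in parentheses are exact 95% Poisson limits for CPM and exact 95% binomial limits for shares. Limits for CPM and for shares of reads treat each read as a separate draw. Amplified reads that carry no molecular identifier are not separate molecules, so these limits understate the error. Limits for shares of cells treat each cell as a separate draw. None of these limits takes in the spread between animals, and they are no test between groups.

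Of the 34 members, 21 had at least 20 CPM and a read in at least 30% of cells in 1 group or more, and 13 did not. A member was called higher or lower where it met those limits in the higher group and differed at least 1 on the log2 scale (of CPM + 1), both in the summed reads and in the mean CPM per cell. In transplanted over E15 cells, Cdh22 was the 1 member called higher, beside 1.41% of all genes, and Col11a1 and Itgb5 were the 2 called lower, beside 3.69%. In E15 over E12 cells, 3 members were called higher (Ctnna2, Itgb5 and Pcdh9) beside 9.04% of all genes, and 3 lower (Col18a1, Pcdh17 and Pcdh19) beside 6.19%. In transplanted over E12 cells, 4 were called higher (Cdh22, Cdh4, Ctnna2 and Pcdh9) beside 7.03% of all genes, and 4 lower (Col11a1, Col18a1, Itgb8 and Pcdh17) beside 7.64%. As shares of the 34 members the higher and lower counts are 2.94% and 5.88% in transplanted over E15, 8.82% each in E15 over E12 and 11.8% each in transplanted over E12 cells, and 1 member is 2.94% of the set, so each count stands within 2 genes of the background share. Across all 34 members the median log2 ratio was -0.08 in transplanted over E15, -0.59 in E15 over E12 and -0.67 in transplanted over E12 cells, where that of all genes was -0.08 in transplanted over E15, -0.01 in E15 over E12 and -0.04 in transplanted over E12 cells. Lower members numbered 20 of 34 in transplanted over E15 cells (55.7% of all genes were lower there), 21 of 34 in E15 over E12 cells (50.4%) and 23 of 34 in transplanted over E12 cells (51.3%). The 3 comparisons share their groups, so they are not independent of each other.

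**Figure D1:**
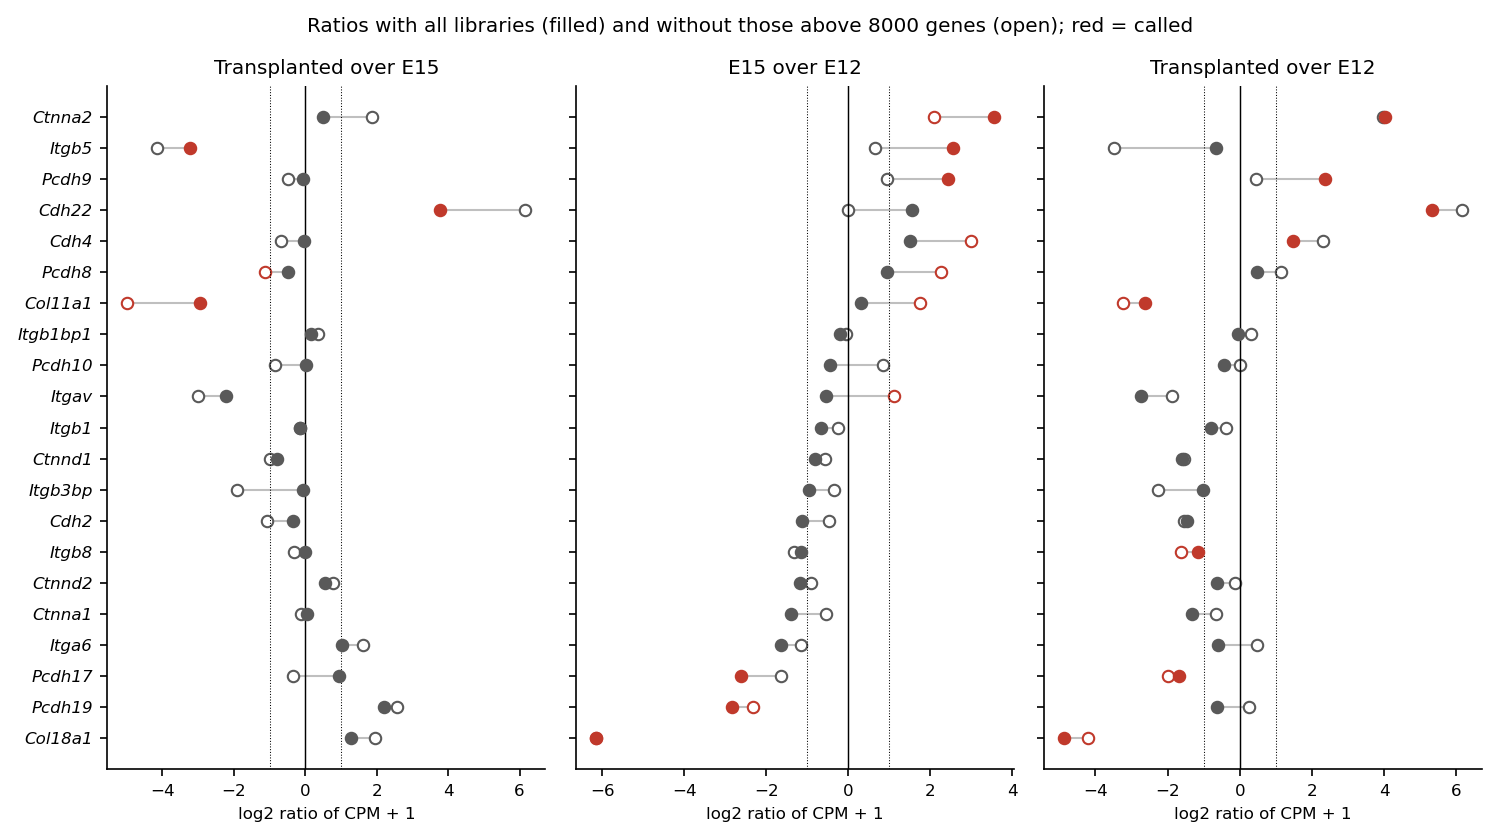
Log2 ratio of CPM + 1 (horizontal axis) of the 21 members that met the level and detection limits, in the 3 comparisons. Filled points use all libraries, open points leave out the many-gene libraries, red marks a call and dotted lines mark a log2 ratio of 1 in size. Ctnna2 lies at 4.04 and Col18a1 at -4.87 in transplanted over E12 cells, and Itgb5 shifts from 2.56 with all libraries to 0.65 without the many-gene libraries in E15 over E12 cells.

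Among the classical cadherins, Cdh2 (N-cadherin, the main cadherin of the ventricular adherens junction; GRCm38 chr18:16588877-16809246) was one of the members read in most cells. It had 93.0 CPM (87.7 to 98.4) in transplanted, 117.4 CPM (114.0 to 120.9) in E15 and 257.8 CPM (243.8 to 272.3) in E12 cells. Over cells the lowest value was 0 in each group, with medians of 98.0, 85.4 and 116.3 CPM and highest values of 405.4, 1000.1 and 1202 CPM in transplanted, E15 and E12 cells. The groups overlap over nearly their whole range, and the E12 excess lies in its upper cells. Reads of Cdh2 were present in 17 of 19 transplanted, 24 of 26 E15 and 15 of 20 E12 cells. The log2 ratio was -0.33 for transplanted over E15, -1.13 for E15 over E12 and -1.46 for transplanted over E12 cells. On mean CPM per cell, where deep cells weigh no more than shallow ones, it was -0.01 for transplanted over E15, -0.70 for E15 over E12 and -0.71 for transplanted over E12 cells, so Cdh2 was not called anywhere.

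Cdh4 (R-cadherin, a second classical cadherin that can pair with N-cadherin; chr2:179442431-179899373) had 30.9 CPM (27.9 to 34.1) in transplanted, 31.8 CPM (30.02 to 33.7) in E15 and 10.5 CPM (7.86 to 13.8) in E12 cells. It was read in 7 of 19 transplanted, 17 of 26 E15 and 6 of 20 E12 cells, and the highest cells reached 1463 in transplanted, 356.2 in E15 and 274.5 CPM in E12 cells. In most cells of the transplanted and E12 groups it was 0, and all groups overlap. Transplanted over E12, the log2 ratio was 1.47, and 61.8% of the transplanted reads came from replicate 1. Leaving out that cell (0.17 as the log2 ratio) or E12 replicate 5 ended the call, and the group without replicate 1 had 11.95 CPM. The call was also lost without the many-gene libraries, where 3 of 14 transplanted cells had a read, at 56.0 CPM. In E15 over E12 cells Cdh4 was called only without the many-gene libraries, at 90.8 against 10.5 CPM (log2 ratio 2.99; 1.51 with all libraries). Cdh4 made up 24.95% of the reads of Cdh2 and Cdh4 in transplanted, 21.3% in E15 and 3.92% in E12 cells. Without the many-gene libraries the shares were 38.9% in transplanted, 32.9% in E15 and 3.92% in E12 cells. Cdh4 had more reads than Cdh2 in 1 of 19 transplanted, 2 of 26 E15 and 2 of 20 E12 cells.

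Ctnna2 (alpha-N-catenin, the neural form of the protein that links the cadherin complex to actin; chr6:76881637-77979699, minus strand) showed the widest difference between E15 and E12 cells in summed reads among the members called higher, while on mean CPM its log2 ratio (2.75) was below that of Itgb5 (3.69). It had 131.5 CPM (125.3 to 137.9) in transplanted, 93.8 CPM (90.7 to 97.0) in E15 and 7.08 CPM (4.93 to 9.85) in E12 cells. Over cells the lowest value was 0 in each group, the medians were 0 in transplanted, 65.6 in E15 and 0 CPM in E12 cells and the highest 221.5 in transplanted, 238.7 in E15 and 116.3 CPM in E12 cells. Transplanted cells were split into 9 with a read and 10 without, whereas 19 of 26 E15 and 8 of 20 E12 cells had a read and all E12 cells but 1 lay under 50 CPM. At an equal depth of 25000 reads per cell, Ctnna2 was read in 8 of 17 transplanted cells (47.1%, 22.98 to 72.2%), 15 of 24 E15 cells (62.5%, 40.6 to 81.2%) and 1 of 18 E12 cells (5.56%, 0.14 to 27.3%).

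The log2 ratio of Ctnna2 was 3.55 for E15 over E12 cells and stayed between 3.07 and 4.67 when any 1 cell was left out. Within the 8 pools in which the labels place the libraries, it was higher in 8 of 8, with log2 ratios of 1.92 to 6.92. All 11 many-gene E15 libraries held it at 81.0 to 161.7 CPM. Without them the values were 33.7 CPM in E15 and 7.08 CPM in E12 cells, a log2 ratio of 2.10 that was still called. For transplanted over E12 cells the log2 ratio was 4.04 (3.55 to 5.15 without any 1 cell), and it was higher in 5 and lower in 2 of 7 pools. Without the many-gene libraries Ctnna2 was read in 4 of 14 transplanted cells, fewer than the 30% a call needs, at 124.6 CPM, and replicate 19 held 477 of those 578 reads. In the deposited residual values the mean difference of transplanted and E12 cells was -0.00365 on the log10 scale. Transplanted over E15, the log2 ratio was 0.48 on summed reads and -0.25 on mean CPM, and no call was made.

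Ctnna1 (alpha-E-catenin, the broadly expressed counterpart; chr18:35118859-35254779) ran the other way. It had 121.3 CPM (115.4 to 127.5) in transplanted, 116.4 CPM (113.0 to 119.9) in E15 and 305.1 CPM (289.9 to 320.9) in E12 cells, with medians over cells of 84.8 in transplanted, 85.8 in E15 and 169.6 CPM in E12 cells and highest values of 562.1 in transplanted, 619.1 in E15 and 823.6 CPM in E12 cells. The E12 cells sat higher as a group, but their range contains that of the others. Of the E12 reads, replicate 5 held 50.5%, and without that cell the E12 level was 225.9 CPM. Ctnna1 was lower in E15 than in E12 cells in 8 of 8 pools and lower in transplanted than in E12 cells in 7 of 7. The log2 ratio of E15 over E12 cells was -1.38 on summed reads and -0.87 on mean CPM, and that of transplanted over E12 cells was -1.32 and -0.71. The mean CPM misses the limit for a call in both. On summed reads without the many-gene libraries the log2 ratios were -0.54 for E15 over E12 and -0.66 for transplanted over E12 cells. Lrrtm2 lies over its 3′ end on the other strand, and whether the counting used strand is not given in the sources used here.

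Set against each other, Ctnna2 supplied 52.0% (50.3 to 53.7) of the reads of the 2 alpha-catenins in transplanted, 44.6% (43.5 to 45.7) in E15 and 2.27% (1.58 to 3.14) in E12 cells. Without the many-gene libraries the shares were 39.3% in transplanted, 13.8% in E15 and 2.27% in E12 cells. Ctnna2 had more reads than Ctnna1 in 4 of 19 transplanted, 12 of 26 E15 and 2 of 20 E12 cells. In the other libraries this held in 0 of 14 transplanted, 2 of 15 E15 and 2 of 20 E12 cells. The transplanted shares thus describe summed reads and not most cells. The 12 neuron marker genes summed to 5073 CPM in transplanted, 5295 CPM in E15 and 1217 CPM in E12 cells. Over all 65 cells Ctnna2 and the summed neuron genes had a Spearman correlation of 0.47, which was 0.07 over the 49 cells that are no many-gene libraries. With the ventral and interneuron genes it was 0.52 over the 65 cells and 0.08 over the 49, and over the 26 E15 cells it was 0.65, against 0.41 with the neuron genes. The points share sequencing depth, and the part of neuron or interneuron RNA in the Ctnna2 difference was not tested.

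Of the catenins that bind the cadherin tail near the membrane, Ctnnd1 (which keeps cadherins at the cell surface) had 16.7 CPM in transplanted, 29.5 CPM in E15 and 52.2 CPM in E12 cells, with reads in 11 of 19 transplanted, 18 of 26 E15 and 4 of 20 E12 cells. Replicate 5 alone held 84.1% of its E12 reads, and without that cell the E12 level was 12.4 CPM. Its log2 ratio in E15 over E12 cells therefore changed sign between summed reads (-0.80) and mean CPM (1.36). Ctnnd2 (delta-catenin, a neural relative) had 60.2, 40.4 and 93.1 CPM in transplanted, E15 and E12 cells. Neither was called.

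**Figure D2:**
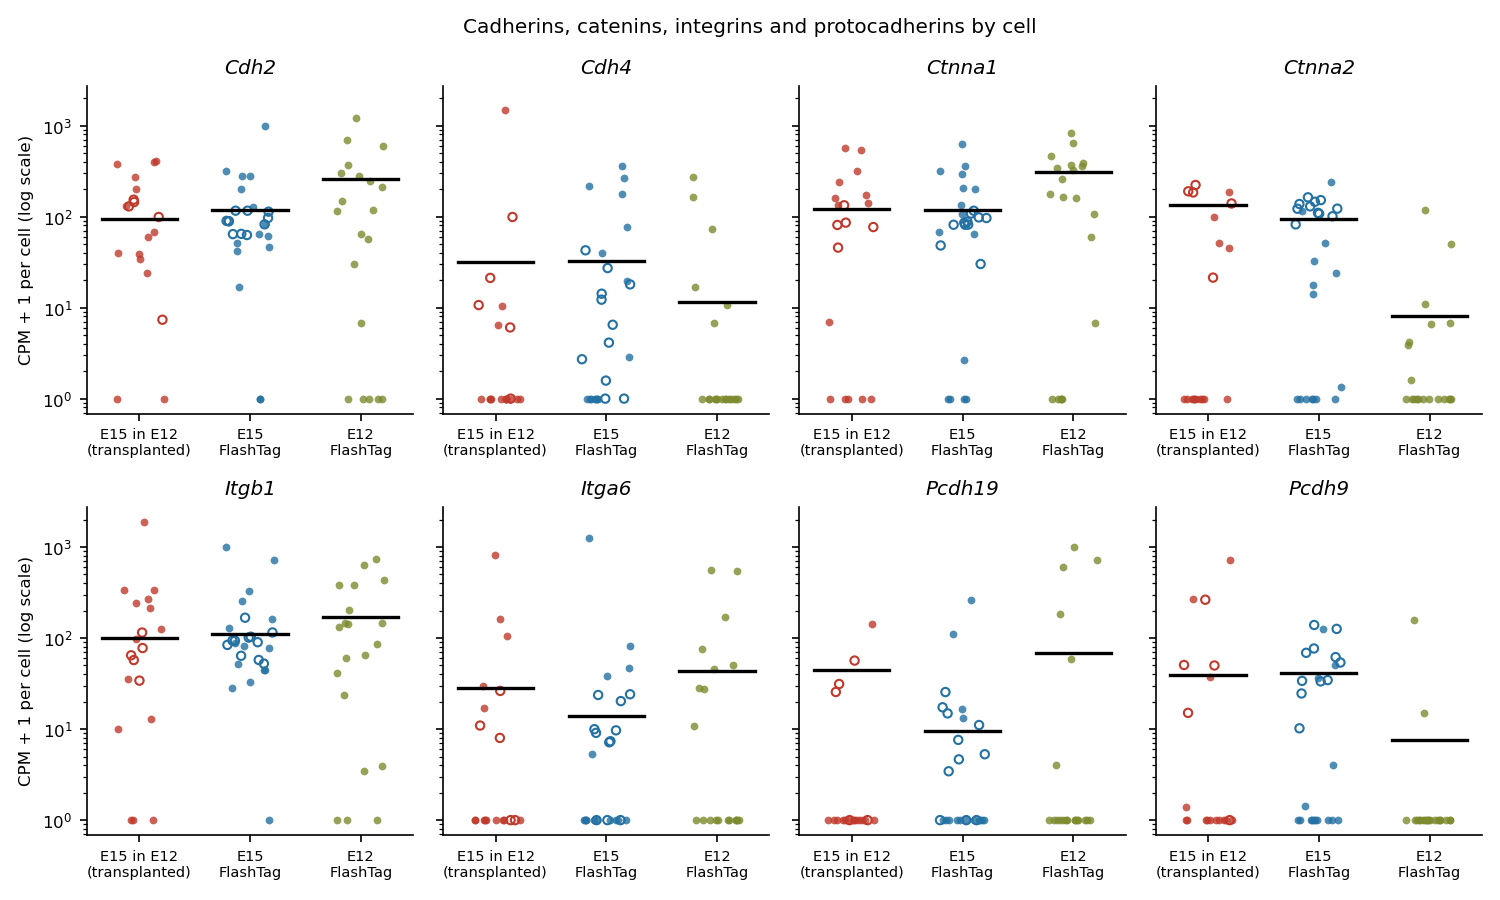
CPM + 1 per cell (log axis) of 8 members in transplanted, E15 and E12 cells; 1 point is 1 cell, open circles are many-gene libraries and black bars give the CPM of the summed reads. Ctnna2 is at 81.0 to 161.7 CPM in the 11 many-gene E15 cells and under 50 CPM in all E12 cells but 1, while Ctnna1, Cdh2 and Itgb1 overlap across groups.

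The 3 type II cadherins, a class that sorts neurons into groups, were read in few cells. Cdh22 (chr2:165111507-165234853, minus strand) had 38.8 CPM (35.5 to 42.4) in transplanted, 1.92 CPM (1.503 to 2.42) in E15 and 0 CPM in E12 cells. Reads came from 6 of 19 transplanted cells, whose highest value was 114.1 CPM, and from 5 of 26 E15 cells, whose highest value was 8.67 CPM. The 6 transplanted cells with reads all lay above the highest E15 cell, and the other 13 were at 0. In E12 cells 0 of 20 had a read, which allows a share of up to 15% when 3 cells are taken as the floor (the exact binomial limit is 16.8%). The log2 ratio in transplanted over E15 cells was 3.77 (2.82 to 4.21 without any 1 cell), and the transplanted level was 64.0-fold that of 3 counts over the E12 group. The 95% lower limit of the ratio of transplanted over E12 cells was 51.9, with each read taken as a separate draw. Both Cdh22 calls ended when any of the 6 cells was left out, because the share of cells then fell under the limit. Replicate 19 held 59.7% of the reads, and without it the transplanted level was 19.6 CPM, so the 64.0-fold value leans on that cell. At equal depth 2 of 17 transplanted, 0 of 24 E15 and 0 of 18 E12 cells had a read, so the difference was hardly detectable there. Cdh22 had a Spearman correlation of 0.60 with the summed ventral and interneuron genes over the 19 transplanted cells, which differ in depth. Of the 6 cells, 4 are among the 5 many-gene transplanted libraries. In the other libraries 2 of 14 transplanted and 0 of 15 E15 cells had a read, at 70.5 CPM in transplanted cells, and both calls were lost. The correlation with the ventral genes was 0.48 over all 65 cells and 0.28 over the 49 cells of the other libraries. That with the neuron genes was close, at 0.51 over the 19 transplanted cells, 0.48 over the 65 cells and 0.19 over the 49. The part of these markers in the result was not tested.

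Cdh11, a type II cadherin of mesenchyme and of some neurons, had 6.53 CPM in 8 of 19 transplanted cells and 3.26 CPM in 10 of 26 E15 cells, and no read in 20 E12 cells. Set against 3 counts over the E12 group it was 10.8-fold higher in transplanted and 5.36-fold higher in E15 cells, at levels under the 20 CPM limit. The 95% lower limits of the ratios over E12 cells were 8.55 for transplanted and 4.30 for E15 cells. Cdh7 stayed at 3.70, 4.59 and 6.47 CPM in transplanted, E15 and E12 cells, with reads in 2 transplanted, 8 E15 and 2 E12 cells.

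Protocadherins are weaker, mostly same-type adhesion proteins, and 5 of the 7 non-clustered ones met the limits. Pcdh9 (chr14:93013410-93890679, minus strand) had 38.6 CPM (35.3 to 42.2) in transplanted, 40.7 CPM (38.7 to 42.8) in E15 and 6.68 CPM (4.60 to 9.38) in E12 cells. Over cells the medians were 0 in transplanted, 16.4 in E15 and 0 CPM in E12 cells and the highest values 726.8 in transplanted, 138.2 in E15 and 156.0 CPM in E12 cells, with reads in 8 of 19 transplanted, 16 of 26 E15 and 2 of 20 E12 cells. The E12 group was thus at 0 in all cells but 2, although its highest cell exceeds every E15 cell. The log2 ratio was 2.44 in E15 over E12 cells (1.92 to 4.87 without any 1 cell; higher in 7 of 8 pools) and 2.37 in transplanted over E12 cells. All 11 many-gene E15 libraries had reads, and without the many-gene libraries the levels were 9.48 in transplanted, 13.7 in E15 and 6.68 CPM in E12 cells and no call was left. Over the 26 E15 cells Pcdh9 had a Spearman correlation of 0.72 with the summed ventral and interneuron genes and of 0.60 with the microglia genes. Over all 65 cells these were 0.43 and 0.51, and over the 49 cells of the other libraries 0.0039 and 0.31. With the neuron genes the correlation was 0.54 over the E15 cells, 0.43 over the 65 cells and 0.097 over the 49. The part of such RNA in the result was not tested. Leaving out transplanted replicate 4, which held 52.95% of the reads, also ended the call in transplanted over E12 cells. At equal depth 6 of 17 transplanted, 13 of 24 E15 and 2 of 18 E12 cells had a read.

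Pcdh17 and Pcdh19 were lower at E15. Pcdh17 (chr14:84443563-84539002) had 38.5 CPM (35.2 to 42.1) in transplanted, 19.7 CPM (18.3 to 21.2) in E15 and 126.3 CPM (116.5 to 136.6) in E12 cells. Reads were present in 8 of 19 transplanted, 17 of 26 E15 and 7 of 20 E12 cells, with a median of 317.0 CPM over the E12 cells with a read. The E12 share was the smallest there but the largest at equal depth. A read was then found in 3 of 17 transplanted, 5 of 24 E15 and 7 of 18 E12 cells. The log2 ratio of Pcdh17 was -2.62 in E15 over E12 and -1.69 in transplanted over E12 cells, and leaving out any 1 cell kept both calls. Pcdh17 had 31.0 CPM in transplanted, 40.003 CPM in E15 and 126.3 CPM in E12 cells without the many-gene libraries. The call in E15 over E12 cells was then lost (log2 ratio -1.63 on summed reads and -0.92 on mean CPM), and that in transplanted over E12 cells held (-1.99). Leaving out pool F ended both calls. Within pools the direction was mixed, with E15 lower than E12 in 5 of 8 and transplanted lower than E12 in 4 of 7.

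Pcdh19 (an X-linked gene whose loss causes epilepsy in humans; chrX:133582860-133688987, minus strand) had 43.3 CPM (39.8 to 47.1) in transplanted, 8.62 CPM (7.70 to 9.61) in E15 and 67.4 CPM (60.3 to 75.0) in E12 cells. It was read in 4 of 19 transplanted, 12 of 26 E15 and 6 of 20 E12 cells, with highest values of 143.5 in transplanted, 262.0 in E15 and 998.8 CPM in E12 cells. The larger E15 share was not seen at equal depth, with a read in 3 of 17 transplanted, 1 of 24 E15 and 4 of 18 E12 cells. Most cells of each group were at 0 and a few E12 cells stood far above the rest. The log2 ratio in E15 over E12 cells was -2.83, and the call ended without any 1 of the 6 E12 cells with reads, since the share of cells then fell under 30%. In transplanted over E15 cells it was 2.20 on summed reads and -0.44 on mean CPM. Replicate 19 held 67.3% of the transplanted reads, and without it the ratio on summed reads was 0.96.

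Pcdh8, Pcdh10 and the remaining protocadherins were not called with all libraries. Pcdh8 had 20.2, 28.6 and 14.4 CPM in transplanted, E15 and E12 cells, and E15 was above E12 in 8 of 8 pools. Without the many-gene libraries it had 32.8 in transplanted, 72.4 in E15 and 14.4 CPM in E12 cells and was called lower in transplanted over E15 cells (log2 ratio -1.12) and higher in E15 over E12 cells (2.26). Pcdh10 had 37.0 in transplanted, 36.8 in E15 and 50.2 CPM in E12 cells. Pcdhgc4, the 1 member from the protocadherin clusters, was read in 3 of 19 transplanted, 11 of 26 E15 and 0 of 20 E12 cells, but its 3′ end is shared with 21 other genes on the same strand, so its counts are uncertain.

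Integrins at the cell surface are paired, and Itgb1 is the beta chain that most matrix-binding alpha chains share. Itgb1 (chr8:128685654-128733200) had 98.5 CPM (93.2 to 104.1) in transplanted, 108.7 CPM (105.4 to 112.1) in E15 and 171.6 CPM (160.2 to 183.5) in E12 cells, with reads in 16 of 19 transplanted, 25 of 26 E15 and 17 of 20 E12 cells. Over cells the medians were 76.7 in transplanted, 88.2 in E15 and 108.2 CPM in E12 cells and the highest values 1865 in transplanted, 1007 in E15 and 732.9 CPM in E12 cells. The 3 groups overlap throughout, and the log2 ratios were -0.14, -0.65 and -0.79 in transplanted over E15, E15 over E12 and transplanted over E12 cells.

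Itga6 (the alpha chain of a laminin receptor; chr2:71745616-71858416) had 27.6 CPM (24.8 to 30.6) in transplanted, 13.1 CPM (11.9 to 14.3) in E15 and 42.9 CPM (37.3 to 49.1) in E12 cells. It was read in 8 of 19 transplanted, 13 of 26 E15 and 9 of 20 E12 cells, and the highest cells reached 827.1 in transplanted, 1256 in E15 and 563.5 CPM in E12 cells. At equal depth, in 1 random draw, the shares lay further apart, but their limits overlap. The highest E15 cell, replicate 24, was not among the 24 thinned E15 cells. A read was found in 8 of 17 transplanted cells (47.1%, 22.98 to 72.2%), 2 of 24 E15 cells (8.33%, 1.03 to 26.997%) and 7 of 18 E12 cells (38.9%, 17.3 to 64.3%). On the log2 scale transplanted over E15 cells differed by 1.02 on summed reads but by 0.08 on mean CPM, so Itga6 was not called.

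Itgav, which pairs with Itgb1, Itgb5 and Itgb8, had 4.56, 24.7 and 36.2 CPM in transplanted, E15 and E12 cells. Replicate 13 held 62.9% of its E15 reads and replicate 5 held 53.1% of its E12 reads. The log2 ratio in transplanted over E15 cells was -2.21 on summed reads and 0.34 on mean CPM. In E15 over E12 cells it was -0.53 with all libraries, and without the many-gene libraries it was 1.11 and called higher, at 79.3 CPM in E15 and 36.2 CPM in E12 cells. Itgb8, whose pair with Itgav activates latent TGF-beta, had 19.7 CPM (17.3 to 22.3) in transplanted, 19.7 CPM (18.3 to 21.2) in E15 and 44.9 CPM (39.2 to 51.2) in E12 cells, with reads in 8 of 19 transplanted, 16 of 26 E15 and 6 of 20 E12 cells. Its highest cells were at 100.7 in transplanted, 135.3 in E15 and 305.2 CPM in E12 cells, and the groups overlap. The log2 ratio of transplanted over E12 cells was -1.15, a call that ended when any 1 of 7 cells was left out, these being transplanted replicate 14 and the 6 E12 cells with reads. The mean of the ratios within pools was 0.32, the other direction.

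Itgb5 (a vitronectin-binding beta chain, which microglia express strongly; chr16:33829665-33949338) had the widest log2 ratio on summed reads among the integrins that met the limits. It had 10.8 CPM (9.05 to 12.7) in transplanted, 108.5 CPM (105.2 to 111.8) in E15 and 17.6 CPM (14.1 to 21.7) in E12 cells. Over cells the medians were 0 in transplanted, 9.40 in E15 and 0 CPM in E12 cells and the highest values 77.4 in transplanted, 435.4 in E15 and 50.7 CPM in E12 cells, with reads in 6 of 19 transplanted, 15 of 26 E15 and 4 of 20 E12 cells. The highest E15 cells stood apart from most other cells, and these are mainly the 11 many-gene libraries, which all had reads, at 17.95 to 435.4 CPM. The log2 ratio was -3.22 in transplanted over E15 cells (-4.48 to -2.92 without any 1 cell; lower in 5 of 7 pools) and 2.56 in E15 over E12 cells (2.33 to 5.63; higher in 7 of 8 pools). At equal depth 1 of 17 transplanted, 12 of 24 E15 and 2 of 18 E12 cells had a read.

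Microglia and macrophage genes moved with Itgb5 in both comparisons that include E15 cells when all libraries were used, but not in transplanted over E12 cells. All 14 genes of that list were measured and none was at 0 in E15 cells. All 14 were called higher in E15 over E12 cells, beside 9.04% of all genes. In transplanted over E15 cells 4 were called lower (Aif1, Trem2, Spi1 and P2ry12), beside 3.69% of all genes. In transplanted over E12 cells 11 of the 14 genes were called higher, beside 7.03% of all genes, with sums of 1303 against 89.4 CPM. Itgb5 was not called there, at 10.8 against 17.6 CPM (log2 ratio -0.66). Their sum per cell ran from 0 to 25915 CPM (median 404.7) in transplanted, from 2.64 to 10589 CPM (median 1045) in E15 and from 0 to 562.9 CPM (median 32.9) in E12 cells. In the 11 many-gene E15 libraries it was 850.2 to 10589 CPM, and in the 5 many-gene transplanted libraries 3.03 to 2663 CPM. Without the many-gene libraries Itgb5 had 0.65, 28.2 and 17.6 CPM in transplanted, E15 and E12 cells, the log2 ratios were -4.15 for transplanted over E15 and 0.65 for E15 over E12 cells, and neither was called. The microglia genes went the other way there in transplanted over E15 cells, with a median log2 ratio of 0.79 and 8 of 14 higher. Itgb5 and the summed microglia genes had a Spearman correlation of 0.50 over all 65 cells and of 0.17 over the 49 cells without the many-gene libraries. By group it was 0.21 in transplanted, 0.73 in E15 and 0.09 in E12 cells. Over the E15 cells Itgb5 also had a correlation of 0.57 with the ventral and interneuron genes and of 0.54 with the neuron genes. The cells share depth as well, and the part of RNA from these cell types in the Itgb5 difference was not tested.

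Itgam and Itgb2, the chains of the integrin Mac-1 on microglia and other myeloid cells, stayed under the limits, and their E15 reads lay mostly in the many-gene libraries. Itgam had 10.9 CPM in 5 of 19 transplanted, 16.4 CPM in 12 of 26 E15 and 5.06 CPM in 2 of 20 E12 cells. In the many-gene libraries Itgam had 2.35 CPM in transplanted and 23.1 CPM in E15 cells, and in the other libraries 25.6 CPM in transplanted and 0.27 CPM in E15 cells. Replicate 19 held 63.0% of its transplanted reads and replicate 18 held 96% of its E12 reads. Itgb2 had 0.55 CPM in 3 of 19 transplanted and 8.51 CPM in 13 of 26 E15 cells, and 0 of 20 E12 cells had a read. Of the 319 E15 reads of Itgb2, nearly all were in the many-gene libraries, at 11.9 CPM there and 0.27 CPM in the other E15 libraries. All 12 E15 cells with Itgam and all 13 with Itgb2 also had reads of Spi1, which encodes the myeloid transcription factor PU.1, while 7 E15 cells had Spi1 without Itgam and 6 had it without Itgb2. All 5 transplanted cells with Itgam had Spi1 reads, but neither of the 2 E12 cells with Itgam did. Over the 26 E15 cells the Spearman correlation with the summed microglia genes was 0.68 for Itgam and 0.79 for Itgb2. Other lists were related to them too in these cells. With the neuron genes the correlations were 0.58 for Itgam and 0.65 for Itgb2, with the ventral genes 0.47 and 0.58. With the apical progenitor genes they were -0.74 and -0.67. The microglia values were 0.43 and 0.37 over the 49 cells of the other libraries. Depth differs between the cells, and the part of microglia RNA was not tested.

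The Itgam promoter is shown because it is a textbook site of PU.1 binding in human myeloid cells and because the E15 cells with Itgam all had reads of Spi1. The RefSeq window (GRCm38.p6, chr7:128062390-128062689, plus strand) runs from 250 bases before the start of the gene to 50 after it, with capitals at the letters GAGGAAG or their reverse complement CTTCCTC, which are taken for a PU.1 core.
Itgam promoter: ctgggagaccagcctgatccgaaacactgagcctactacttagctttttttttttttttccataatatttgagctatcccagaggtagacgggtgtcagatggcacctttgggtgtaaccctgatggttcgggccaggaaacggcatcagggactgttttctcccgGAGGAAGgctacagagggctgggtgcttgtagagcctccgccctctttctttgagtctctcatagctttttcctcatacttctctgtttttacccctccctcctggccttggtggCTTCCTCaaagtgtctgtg
It holds 2 matches, 1 on each strand. The same letters on either strand are in 13.6% of all 32851 promoters of the table, and in 4 of the 24 members with a window there (Cdh22, Ctnnd1, Itgam and Itgav), so a match alone is common and says nothing of binding.

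**Figure D3:**
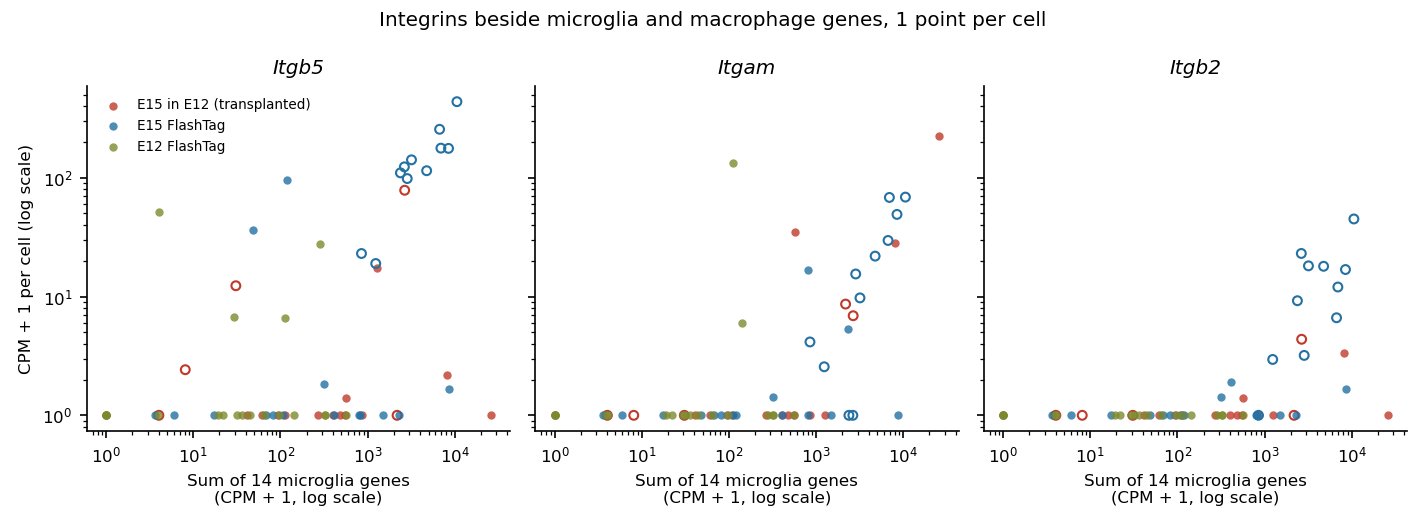
CPM + 1 per cell of Itgb5, Itgam and Itgb2 (vertical, log axis) against the CPM + 1 summed over 14 microglia and macrophage genes (horizontal, log axis), 1 point per cell in transplanted, E15 and E12 cells; open circles are many-gene libraries. The many-gene E15 cells lie at the right, with microglia sums of 850.2 to 10589 CPM and Itgb5 at 17.95 to 435.4 CPM.

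Collagen genes were read in few cells and gave some of the largest ratios. Col11a1 (a chain that sets the width of collagen fibrils; chr3:114030540-114220718) had 8.34 CPM (6.82 to 10.1) in transplanted, 71.1 CPM (68.4 to 73.8) in E15 and 56.7 CPM (50.2 to 63.7) in E12 cells. Over cells the medians were 0 in transplanted, 15.4 in E15 and 0 CPM in E12 cells and the highest values 65.2 in transplanted, 2053 in E15 and 388.4 CPM in E12 cells, with reads in 7 of 19 transplanted, 17 of 26 E15 and 8 of 20 E12 cells. No transplanted cell reached 100 CPM, while 4 E15 and 3 E12 cells exceeded it. The log2 ratio was -2.95 in transplanted over E15 cells (-3.31 to -2.32 without any 1 cell) and -2.63 in transplanted over E12 cells (-2.99 to -2.10). Without the many-gene libraries the values were 5.17 in transplanted, 194.0 in E15 and 56.7 CPM in E12 cells, and both calls held, at log2 ratios of -4.98 over E15 and -3.22 over E12 cells, while E15 over E12 cells was then called higher (1.76). Transplanted cells were lower than E15 cells in 5 of 7 pools and lower than E12 cells in 4 of 7. At equal depth the shares of cells with a read were close, at 3 of 17 transplanted, 6 of 24 E15 and 3 of 18 E12 cells, so the difference lay in the reads of a few high cells.

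Col18a1 (a basement membrane collagen from which endostatin is cut; chr10:77052178-77166548, minus strand) had 5.43 CPM (4.22 to 6.87) in transplanted, 1.65 CPM (1.27 to 2.12) in E15 and 187.0 CPM (175.1 to 199.4) in E12 cells. It was read in 7 cells of each group, and the highest of them reached 123.5 in transplanted, 201.7 in E15 and 1105 CPM in E12 cells. Of the 7 E12 cells, replicate 5 held 72.2% of the reads, and without it the E12 level was 77.7 CPM. The log2 ratio was -6.15 in E15 over E12 cells (-6.47 to -4.89 without any 1 cell) and -4.87 in transplanted over E12 cells (-5.47 to -3.61). On mean CPM per cell the log2 ratios were smaller, -3.00 for E15 over E12 and -2.29 for transplanted over E12 cells, and within pools E15 was lower in 4 and higher in 2 of 8. Both calls held without the many-gene libraries. At equal depth 3 of 17 transplanted, 2 of 24 E15 and 5 of 18 E12 cells had a read.

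The other collagens stayed under the limits. Col2a1, a fibril collagen of cartilage that neuroepithelium also makes, had 10.5, 5.82 and 74.5 CPM in transplanted, E15 and E12 cells, but E12 replicate 5 held 93.8% of its E12 reads. Col12a1 was read in 1 of 20 E12 cells, and Col27a1 in 2 of 19 transplanted, 4 of 26 E15 and 4 of 20 E12 cells. Col1a2, a chain of type I collagen made by fibroblasts and meninges, had 5.11 CPM in 4 of 19 transplanted and 5.84 CPM in 6 of 26 E15 cells, and none of the 20 E12 cells had a read. It was the 1 of 11 fibroblast and meninges markers in the tables. Of 10 endothelial markers only Egfl7 was measured, at 2.75 in transplanted, 2.99 in E15 and 18.4 CPM in E12 cells, and 0 of 6 pericyte markers were. Lamb2, a laminin chain of the pial basement membrane, was the only laminin, at 7.16 in transplanted, 10.8 in E15 and 59.1 CPM in E12 cells with reads in 6 of 19 transplanted, 9 of 26 E15 and 3 of 20 E12 cells, and replicate 13 held 82.9% of its E12 reads.

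**Figure D4:**
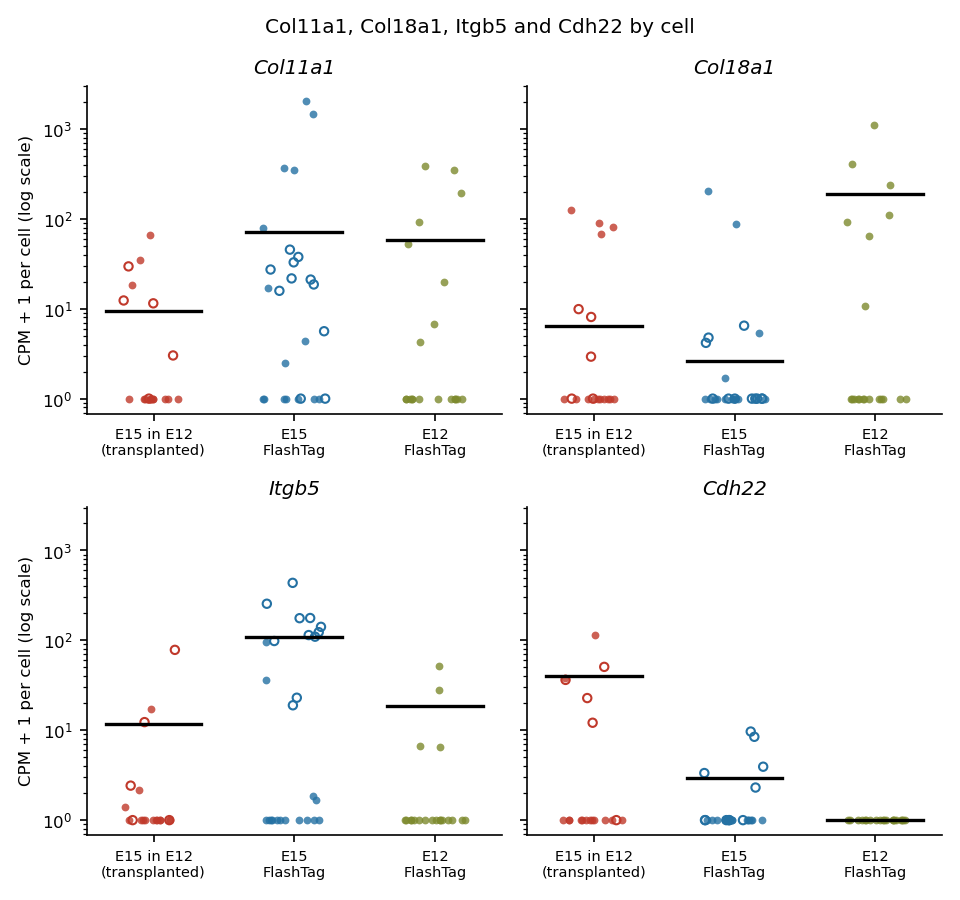
CPM + 1 per cell (log axis) of Col11a1, Col18a1, Itgb5 and Cdh22 in transplanted, E15 and E12 cells; 1 point is 1 cell, open circles are many-gene libraries and black bars give the CPM of the summed reads. Cdh22 is at 0 in all 20 E12 cells, no transplanted cell is above 65.2 CPM of Col11a1, and 1 E12 cell reaches 1105 CPM of Col18a1.

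The other 3 genes carry the names of these families without belonging to them. Itgb1bp1 encodes an adaptor on the tail of integrin beta chains, and it had 74.1, 66.6 and 76.9 CPM in transplanted, E15 and E12 cells. Itgb3bp encodes a centromere protein, and it had 49.0 in transplanted, 51.7 in E15 and 100.4 CPM in E12 cells, of which E12 replicate 5 held 80.0%. Col4a3bp encodes a ceramide transporter, and it had 10.4 in transplanted, 6.94 in E15 and 0.40 CPM in E12 cells. Itgb1bp1 and Itgb3bp met the limits, and none of the 3 was called.

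**Figure D5:**
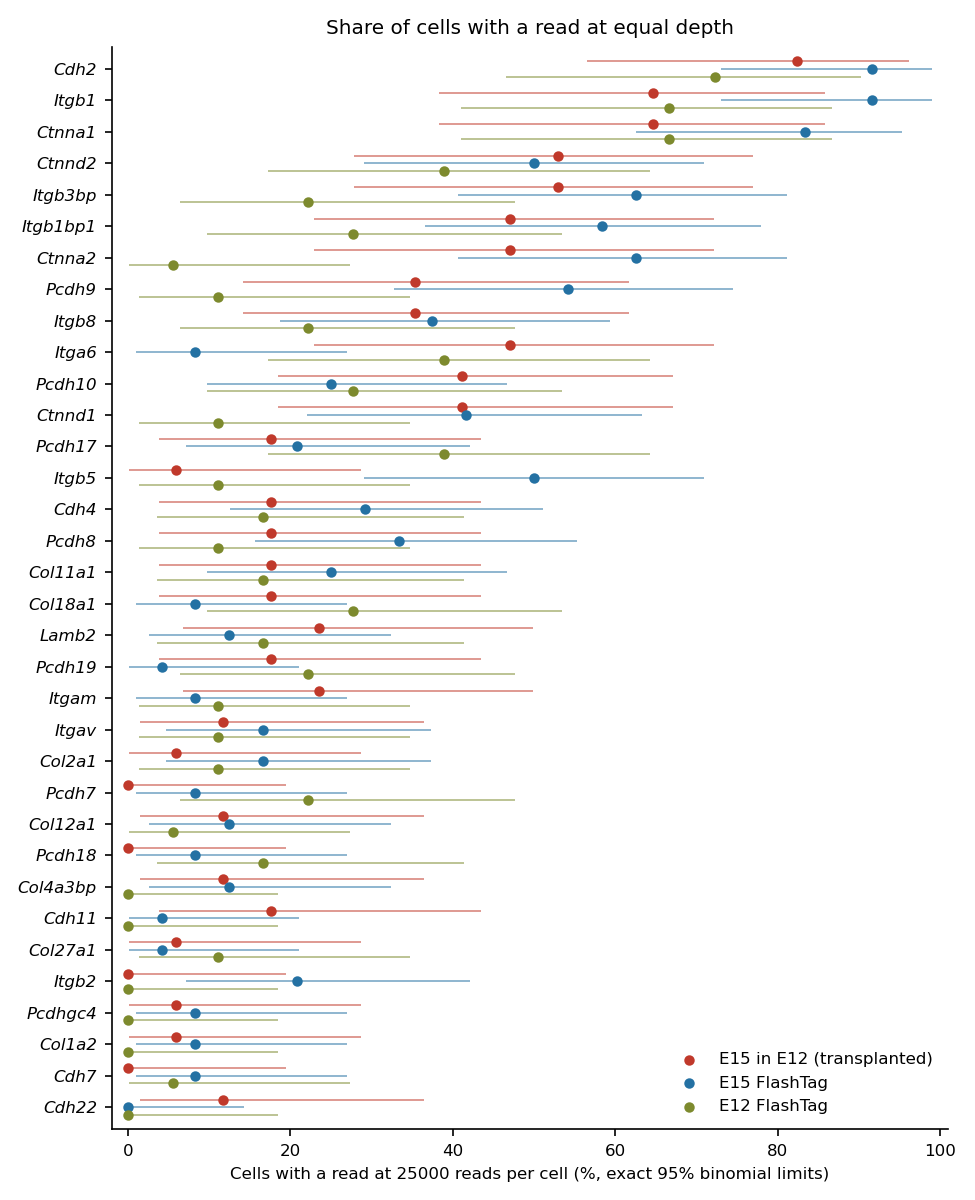
Share of cells with a read (horizontal axis, percent) for all 34 members after thinning each cell to 25000 reads, in 17 transplanted, 24 E15 and 18 E12 cells. Lines are exact 95% binomial limits, which treat each cell as a separate draw and take in no spread between animals. Cdh2 is at 82.4% of transplanted, 91.7% of E15 and 72.2% of E12 cells, Ctnna2 is at 47.1% of transplanted, 62.5% of E15 and 5.56% of E12 cells, and Itgb5 is read in 1 of 17 transplanted, 12 of 24 E15 and 2 of 18 E12 cells.

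Genes that work with the members were followed as lists. Their calls stand beside the shares of all genes called higher and lower. These were 1.41% and 3.69% in transplanted over E15 and 9.04% and 6.19% in E15 over E12 cells. They were 7.03% and 7.64% in transplanted over E12 cells. Of the adherens junction partners, 23 were measured. In transplanted over E15 cells 20 of 23 were lower on summed reads, against 55.7% of all genes. On mean CPM per cell the list was mixed in that comparison. Tjp1, for example, was then higher (66.2 against 37.2 CPM) and Rhoa lower (27.7 against 63.8 CPM). Of the 23, none was called higher and 1 lower in transplanted over E15 cells, Rhoa, a GTPase of actin control, at 34.6 against 71.6 CPM. In E15 over E12 cells Rhoa was called higher (71.6 against 26.1 CPM) and Nectin3, an adhesion protein of the same junction, and Fat3, an atypical cadherin, lower. Nectin3 had 42.9 CPM in transplanted, 35.9 CPM in E15 and 269.5 CPM in E12 cells, and Fat3 had 1.10 in transplanted, 5.79 in E15 and 64.3 CPM in E12 cells. In transplanted over E12 cells Nectin3, Fat3 and Pard3 (a polarity protein) were the 3 called lower, and 0 were called higher. The list's median log2 ratios were -0.32, -0.18 and -0.23 in transplanted over E15, E15 over E12 and transplanted over E12 cells. Ctnnb1, beta-catenin, had 16.2 in transplanted, 11.5 in E15 and 13.2 CPM in E12 cells.

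Among 12 measured partners of integrins inside the cell, 1 was called lower in transplanted over E15 cells, the kinase gene Ptk2, at 31.6 against 67.1 CPM. None of the 12 was called in E15 over E12 cells. In transplanted over E12 cells Tln1 (talin, which switches integrins on) was called higher, at 158.4 against 29.9 CPM, and Fermt2 (kindlin, its helper) lower, at 41.0 against 118.2 CPM. The list's median log2 ratio was 0.22 in transplanted over E15, -0.18 in E15 over E12 and -0.10 in transplanted over E12 cells.

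The matrix list had 14 genes measured. In transplanted over E15 cells 12 of 14 genes were lower, against 55.7% of all genes, with a median log2 ratio of -0.82, and 3 were called lower, namely Sparc, the collagen chaperone Serpinh1 and the brain proteoglycan Bcan. Sparc, a collagen-binding matrix protein, had 81.5 CPM in transplanted and 300.0 CPM in E15 cells, and Serpinh1 had 15.5 CPM in transplanted and 45.2 CPM in E15 cells. In transplanted over E12 cells 13 of 14 were lower, against 51.3% of all genes, with a median of -1.47; Dag1, Fn1 and Serpinh1 were called lower and Vcan, a large proteoglycan, was called higher. Vcan had 51.7 CPM in transplanted, 35.2 CPM in E15 and 1.21 CPM in E12 cells, and Fn1, fibronectin, had 27.1 in transplanted, 34.5 in E15 and 154.2 CPM in E12 cells. In E15 over E12 cells Vcan was called higher and Fn1 and Serpinh1 lower, and the median was -0.56. Leaving out the many-gene libraries gave medians of -1.51 in transplanted over E15, -0.30 in E15 over E12 and -1.18 in transplanted over E12 cells.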

How the data were processed

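The files hold 1 column of values per cell, made from SMART-Seq v4 3′ DE and Nextera XT libraries per the labels' protocols. The submitters' processing notes name the aligner STAR, the counter HTSeq and the build mm10, without versions. The deposited values are log10 residuals: judging from the values, the authors scaled the counts of each cell, added 1, took log10, centred each gene over the 65 cells and regressed out 2 more directions. Read counts were recovered from these deposited log10 values for all 10407 genes, and all 356667 non-zero values came out whole. The recovery was tested on simulated data.

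Counts were added per group and scaled to CPM, and log2 ratios were taken after adding 1 CPM. The 21 members meeting 20 CPM and 30% of cells are described with values, those called in full, and others only where they are alone in their family or mark another cell type. Cdh7, Cdh11, Col12a1, Col27a1, Col2a1, Pcdhgc4 and Col4a3bp were added after their values were seen. Members, lists and limits were chosen with earlier results of these data known. Lists kept genes with 5 CPM or more in either group. Thinning used 1 random draw of 25000 reads per cell. The pools of the labels are not defined there. Coordinates are from GENCODE vM21 (GRCm38), the promoter from RefSeq (GRCm38.p6). The work was done in Python (version 3.11.15), with tables in pandas (version 2.3.3), arrays in NumPy (version 2.4.6), limits from SciPy (version 1.17.1), compiled loops in Numba (version 0.67.0) and plots in Matplotlib (version 3.10.9). The alternatives tried are given in the closing section.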

Additional observations from a re-analysis of the deposited data

How the results depend on the processing

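No paired analysis was possible because no test was made and the labels give no replicate numbers that groups share; the pools that groups share were used for ratios within pools. Of 17 called ratios, none changed sign with TMM or median-of-ratios scaling, thinning, or without any 1 cell; mean CPM per cell is part of the call and a pseudocount (0.1 or 5 CPM) cannot turn a sign, so neither bears on this. The sign turned in 4 cases: Itgb5 in E15 over E12 cells without libraries above 7000 genes (-1.34), and in transplanted over E12 cells Cdh4 without pool E (-0.65), Itgb8 as the mean of ratios within pools (0.32) and Ctnna2 as the deposited difference (-0.00365 on the log10 scale); the cause was not tested. Counts of called members moved as follows. In transplanted over E15 cells 1 higher became 2 on mean CPM and when thinned, 0 at a 50 CPM limit, without libraries above 8000 genes and without pool A, and 0 to 2 without any 1 cell; 2 lower became 5 on mean CPM, 4 without a filter and 6 without libraries above 7000 genes. In E15 over E12 cells 3 higher became 7 on mean CPM, 6 when thinned, 8 without a filter, 5 without libraries above 8000 genes, 6 without those above 7000 and 5 without pool B; 3 lower became 6 without a filter and 5 without pool E. In transplanted over E12 cells 4 higher became 8 without a filter, 1 at 50 CPM, 0 and 1 without libraries above 8000 and 7000 genes, and 2 without transplanted replicate 4; 4 lower became 1 when thinned, 8 without a filter and 2 without pool G. Leaving out 1 pool ended both Cdh22 calls (pools A, B and C), both Pcdh17 calls (F), that of Pcdh19 (A, B, D, F and H), those of Col18a1 in E15 over E12 (G) and transplanted over E12 cells (E and G), and in transplanted over E12 cells those of Cdh4 (E), Itgb8 (A, B, E and G) and Pcdh9 (D). Depth limits what E12 cells can show: a read in 0 of 20 cells allows a share of up to 15% with a floor of 3 cells (exact binomial limit 16.8%), and 3 counts over the group are 0.61 CPM.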

Other observations

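The chains of an integrin pair were not always read in the same cell. Itga6 and Itgb1 were read together in 7 of 19 transplanted, 13 of 26 E15 and 8 of 20 E12 cells, and Itga6 without Itgb1 in 1 transplanted, 0 E15 and 1 E12 cells. Itgav and Itgb5 were read together in 1 of 19 transplanted, 9 of 26 E15 and 1 of 20 E12 cells, and Itgav and Itgb8 in 2 of 19 transplanted, 10 of 26 E15 and 3 of 20 E12 cells. At 25000 reads per cell the last pair fell to 1 of 17 transplanted, 1 of 24 E15 and 0 of 18 E12 cells, so at that depth co-reading was rare in all groups. Cdh2 and Ctnna1 were read together in 13 of 19 transplanted, 21 of 26 E15 and 13 of 20 E12 cells, and Cdh2 with Ctnna2 in 9 of 19 transplanted, 19 of 26 E15 and 8 of 20 E12 cells. No cell of any group had Ctnna2 without Cdh2 at full depth.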
